A study of Arabidopsis thaliana with 30 samples.

Results

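Genes whose products build ribosomes in the nucleolus were followed in detached Arabidopsis leaves that regenerate roots. They are FIB1 (AT5G52470), FIB2 (AT4G25630), NUC1 (AT1G48920), NOP56 (AT1G56110), the NOP58 copies AT5G27120 and AT3G05060, APUM24 (AT3G16810), RID2 (AT5G57280) and the BRX1 copies AT3G15460 and AT1G52930. These 10 loci were taken by identifier from the 37686 genes of the expression tables, and all 10 passed the filter that kept 20654 genes for testing. The study used RNA sequencing over time to follow gene networks as leaf cells change fate toward roots. Every plant was wild type, accession Col-0, raised for 12 d at 22 °C in days of 16 h light and 8 h darkness. The first pair of rosette leaves was severed between blade and petiole, and tissue at the wound was harvested after culture under 24 h of light per day on B5 medium lacking sucrose. The NPA group had N-1-naphthylphthalamic acid, an inhibitor of polar auxin transport, in the medium at a dose the labels do not give. The mock group had the same medium without it, and the T0 group was taken at detachment. NPA and mock each had 2 libraries at 6 h, 12 h and 24 h and then once a day from 2 d to 5 d, and T0 had 2, which made 30 libraries in 15 groups. The labels do not say whether the 2 libraries of a group came from separate plants, so p-values measure the spread between libraries, which may be technical. Values are TPM, the share of each transcript in its library, corrected for transcript length, so the depth of each library is unknown.

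The nucleolus is where RNA polymerase I transcribes ribosomal RNA and where that RNA is modified, cut and packed with ribosomal proteins into the 2 ribosomal subunits. Box C/D ribonucleoproteins, built from fibrillarin, NOP56 and NOP58 around a guide RNA, add methyl groups to ribosomal RNA. Nucleolin acts on chromatin at ribosomal RNA genes and takes part in early processing. A further set of proteins, APUM24, RID2 and BRX1 among them, is needed for later cuts of the precursor. Cells that resume growth and division need more ribosomes, and RID2 takes its name, ROOT INITIATION DEFECTIVE, from a mutant that fails to start roots in culture at high temperature.

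The genes shared short letters near their starts. The telo-box AAACCCTA and the site II element TGGGCC or TGGGCT, described in promoters of plant ribosomal protein and ribosome biogenesis genes, were searched on both strands from 250 bases before to 50 bases after each annotated gene start of the RefSeq annotation of TAIR10.1. A telo-box lay in 8 of the 10 windows, all but those of APUM24 and RID2, against 6.22% of 27443 windows of all genes. A site II element lay in 8 of the 10, all but those of FIB2 and APUM24, against 21.7% of all windows. Both motifs lay in 7 of the 10 and in 2.2% of all windows, and no 2 of the matches overlapped. Of 55 other ribosome biogenesis genes, 20 held a telo-box, 34 a site II element and 12 both. A match is only a match of letters in this window.

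The 250 bases before the start are printed below for the fibrillarin pair, which differed in its response to NPA, and for 3 genes that held both motifs in the searched window. They read 5′ to 3′ along the strand of the gene, with telo-boxes and site II elements on either strand in capitals. FIB1 lies on the forward strand and its printed bases are chr5:21293897-21294146. Those of FIB2 are chr4:13073840-13074089, also forward. The bases before NOP56 are chr1:20986953-20987202 on the reverse strand. Those before the NOP58 copy AT5G27120 are chr5:9540611-9540860, and those before the BRX1 copy AT1G52930 are chr1:19710929-19711178, both on the forward strand.
FIB1: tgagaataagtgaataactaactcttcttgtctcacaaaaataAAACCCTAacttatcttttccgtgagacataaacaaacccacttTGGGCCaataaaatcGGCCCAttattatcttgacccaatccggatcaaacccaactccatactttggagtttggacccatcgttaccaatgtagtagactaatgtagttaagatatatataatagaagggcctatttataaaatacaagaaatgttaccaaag
FIB2: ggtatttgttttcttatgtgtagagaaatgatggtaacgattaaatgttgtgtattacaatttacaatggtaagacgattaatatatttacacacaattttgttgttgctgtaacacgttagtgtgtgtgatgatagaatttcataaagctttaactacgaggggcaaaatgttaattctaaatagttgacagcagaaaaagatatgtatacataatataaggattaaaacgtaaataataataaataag
NOP56: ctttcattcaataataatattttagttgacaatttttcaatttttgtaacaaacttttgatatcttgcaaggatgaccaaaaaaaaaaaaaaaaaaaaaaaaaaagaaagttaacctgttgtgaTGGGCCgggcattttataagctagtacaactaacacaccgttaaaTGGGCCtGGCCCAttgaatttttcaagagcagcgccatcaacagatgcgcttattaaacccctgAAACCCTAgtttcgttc
NOP58 copy AT5G27120: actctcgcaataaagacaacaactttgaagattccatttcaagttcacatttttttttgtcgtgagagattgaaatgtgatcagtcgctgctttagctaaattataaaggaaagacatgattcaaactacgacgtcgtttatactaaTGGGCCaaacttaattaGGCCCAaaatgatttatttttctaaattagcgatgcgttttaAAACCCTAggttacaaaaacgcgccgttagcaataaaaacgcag
BRX1 copy AT1G52930: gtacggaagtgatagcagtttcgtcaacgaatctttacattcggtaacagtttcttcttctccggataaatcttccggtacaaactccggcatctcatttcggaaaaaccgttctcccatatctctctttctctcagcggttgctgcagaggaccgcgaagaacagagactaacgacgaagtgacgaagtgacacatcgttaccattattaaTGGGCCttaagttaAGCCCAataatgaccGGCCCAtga
The FIB1 stretch carries a telo-box and a facing pair of site II elements, while the FIB2 stretch carries no match and the telo-box of FIB2 lies after its start. NOP56, the NOP58 copy and the BRX1 copy each carry site II elements on both strands, 1 base apart at the closest in NOP56 and farther apart in the other stretches. The BRX1 stretch carries no telo-box, since the telo-box of this copy lies after its start.

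**Figure D1:**
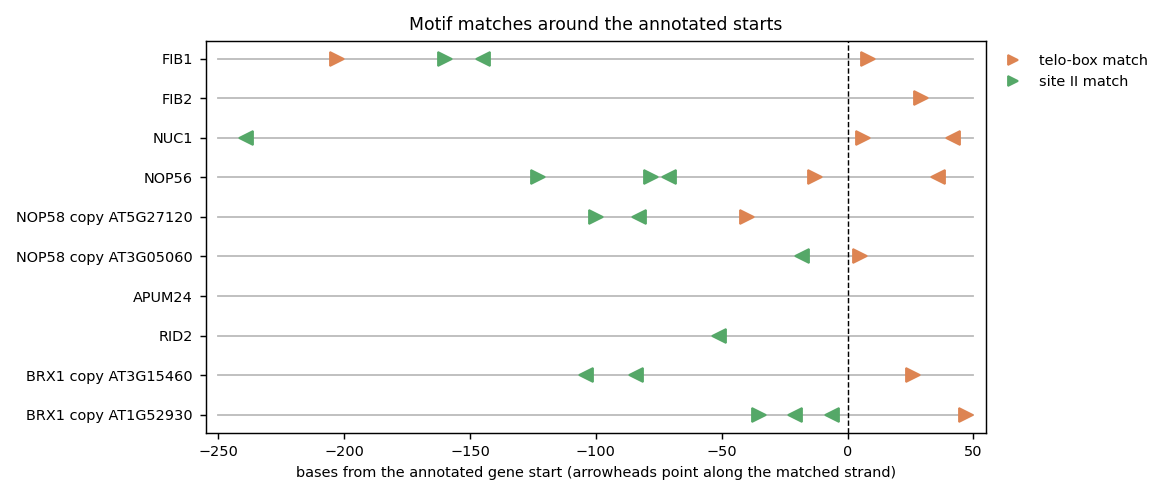
Position of telo-box (orange) and site II (green) matches in bases from the annotated start of each of the 10 genes, with arrowheads along the matched strand. Matches lie on both sides of the start (dashed line), and the APUM24 window holds none.

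The T0 libraries stood apart before any comparison. Pearson's r between the 2 libraries of a group, across genes, came to 0.888 at T0, whereas the 14 remaining groups had values of 0.964 to 0.988. CCA1, a morning-expressed clock gene, stood at 318.01 and 0.13 TPM in T0 replicates 1 and 2. At 12 h it stood at 8.45 and 135.73 TPM in NPA replicates 1 and 2 and at 114.17 and 14.42 TPM in mock replicates 1 and 2. The leaf label held, since the 6 leaf mesophyll markers summed to between 30553.51 and 67714.84 TPM in every library. In these bulk libraries fewer cells of a type and less RNA per cell cannot be told apart.

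The 10 genes differed widely in level. NUC1 was highest, with a median of 205 TPM over the 30 libraries, followed by FIB1 at 118 TPM and NOP56 at 73.5 TPM. The NOP58 copies AT3G05060 and AT5G27120 stood at 32.2 and 30.9 TPM, FIB2 at 28.7 TPM and the BRX1 copy AT1G52930 at 26.1 TPM. RID2 stood at 15.7 TPM, the BRX1 copy AT3G15460 at 15.4 TPM and APUM24 at 14.1 TPM. The ranges over libraries of all neighbours in this order overlapped. All 10 were lowest in 1 library, NPA at 12 h replicate 1, and 9 of the 10 were highest in mock at 6 h replicate 1, the exception being FIB2, highest in mock at 5 d replicate 2. The ratio of the highest to the lowest library ran from 4.26 for FIB1 to 15.8 for FIB2.

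**Figure D2:**
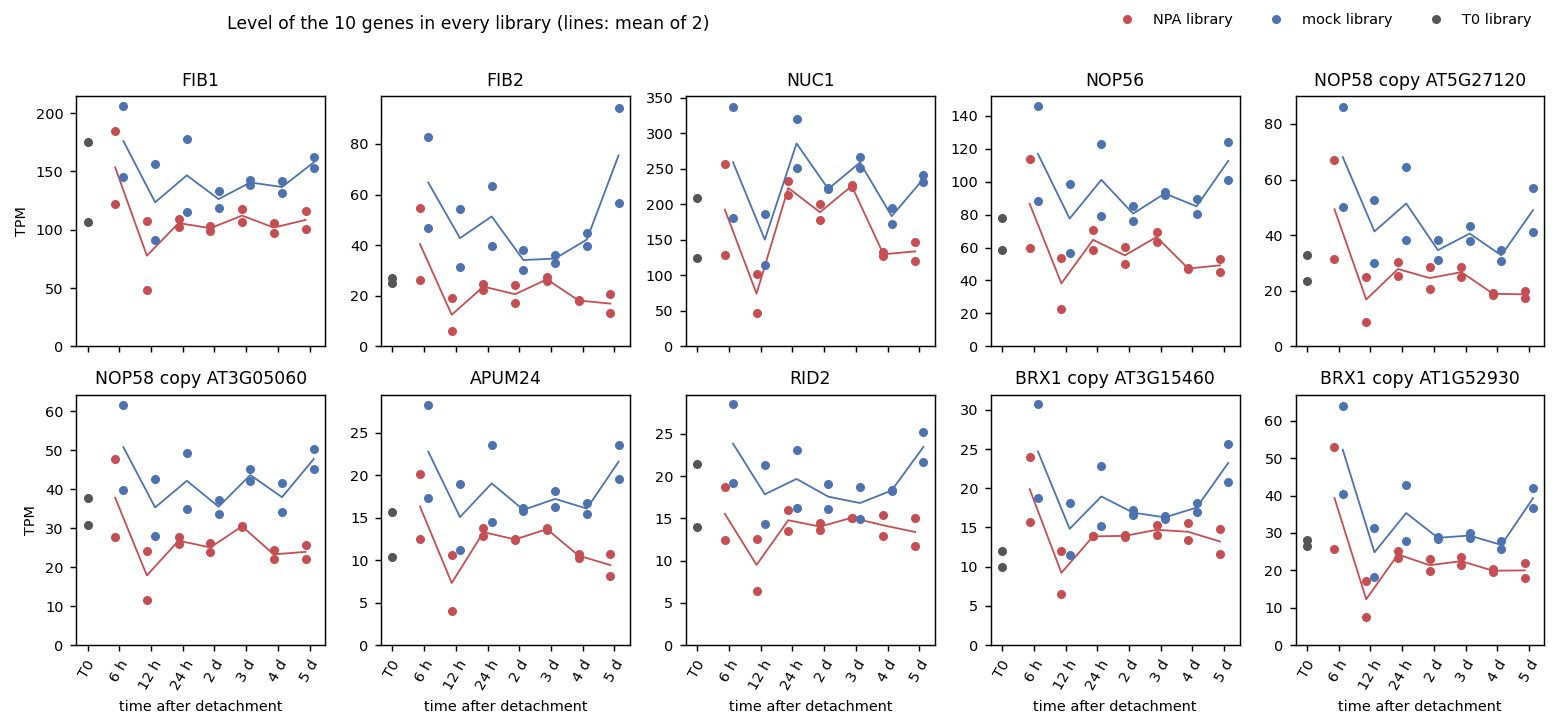
TPM of each of the 10 genes in every library at T0 and from 6 h to 5 d, with points for libraries, lines for the mean of 2, red for NPA, blue for mock and grey for T0. NPA means lie below mock means at 7 of 7 times in all 10 genes, and the 2 libraries of a group lie far apart at 6 h and 12 h.

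NPA was compared with mock to ask which expression beside the wound depends on auxin transport. All 10 genes were lower with NPA when the difference was averaged over the 7 times, with log2 fold changes between -1.13 and -0.40 and a median of -0.60. Over all tested genes 30.6% were called lower in this comparison, and their median was -0.08. The NPA mean was below the mock mean at 7 of 7 times for each of the 10. Calls here and below are from limma on log2(TPM + 1) across 20654 genes, at a Benjamini-Hochberg adjusted p under 0.05.

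FIB2, one of the fibrillarins that transfer the methyl group in box C/D particles, differed most. Over the 14 NPA libraries it ranged from 5.97 to 54.77 TPM with a median of 21.5, and over the 14 mock libraries from 30.11 to 94.38 TPM with a median of 42.2. At 5 d it had 20.53 and 13.31 TPM with NPA, against 56.61 and 94.38 TPM in mock. Both NPA libraries lay below both mock libraries at 5 d, as they did for 44% of all tested genes, and the mock libraries lay far apart. Averaged over times FIB2 fell by 1.13 on the log2 scale (SE 0.16, limma adjusted p = 3.23e-05). FIB1, the more abundant fibrillarin, differed less. It ranged from 48.44 to 184.97 TPM with NPA, median 106, and from 91.15 to 206.51 TPM in mock, median 142. At 5 d FIB1 had 116.16 and 100.81 TPM with NPA, against 153.31 and 162.36 TPM in mock. Its average difference was -0.42 (SE 0.12, limma adjusted p = 0.0113), and with TMM factors it was -0.31 (adjusted p = 0.0734), no longer called.

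NOP56 and the NOP58 copies form the scaffold of the same particle. NOP56 had 53.04 and 45.37 TPM with NPA at 5 d, against 101.26 and 123.81 TPM in mock. The NOP58 copy AT5G27120 had 19.86 and 17.56 TPM with NPA, against 41.03 and 57.03 TPM in mock. The copy AT3G05060 had 25.77 and 22.09 TPM with NPA, against 45.21 and 50.36 TPM in mock. In all 3 genes both NPA libraries lay below both mock libraries at 5 d (44% of all tested genes). Averaged over times NOP56 fell by 0.74 (SE 0.13, limma adjusted p = 0.000332). The copy AT5G27120 fell by 0.83 (SE 0.16, limma adjusted p = 0.000397) and the copy AT3G05060 fell by 0.67 (SE 0.11, limma adjusted p = 0.000127).

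NUC1 encodes nucleolin. It ranged from 47.01 to 257.12 TPM with NPA, median 163, and from 114.79 to 337.48 TPM in mock, median 227. At 5 d it had 147.18 and 120.34 TPM with NPA, against 231.07 and 240.64 TPM in mock. Both NPA libraries lay below both mock libraries at 5 d, as for 44% of all tested genes, although over all times the ranges overlapped. NUC1 fell by 0.51 on average (SE 0.14, limma adjusted p = 0.00621). Over the times from 24 h to 5 d alone, an average chosen after seeing the data, its difference was -0.42 with an adjusted p of 0.052, and the other 9 genes were called lower, against 29.8% of all tested genes.

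The remaining genes act in later processing. APUM24, a nucleolar Pumilio protein that binds RNA, had 10.72 and 8.11 TPM with NPA at 5 d, against 19.6 and 23.58 TPM in mock. RID2, a methyltransferase-like protein, had 14.99 and 11.78 TPM with NPA, against 21.72 and 25.21 TPM in mock. The BRX1 genes are related to a yeast protein of large subunit assembly. The copy AT3G15460 had 14.85 and 11.55 TPM with NPA, against 20.81 and 25.64 TPM in mock. The copy AT1G52930 had 21.92 and 18.03 TPM with NPA, against 36.67 and 42.01 TPM in mock. In all 4 genes both NPA libraries were the lower ones (44% of all tested genes). On average APUM24 fell by 0.61 (SE 0.13), RID2 fell by 0.49 (SE 0.11), the copy AT3G15460 fell by 0.40 (SE 0.10) and the copy AT1G52930 fell by 0.59 (SE 0.13), with limma adjusted p-values of 0.00108, 0.00153, 0.00547 and 0.00142 in that order.

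At single times the calls were few except at 5 d, and the members' median difference was -0.45 at 6 h, -1.02 at 12 h, -0.47 at 24 h, -0.37 at 2 d, -0.35 at 3 d, -0.53 at 4 d and -0.96 at 5 d. The median of all tested genes lay between -0.12 and -0.02 at these times. At 5 d FIB2, NOP56, both NOP58 copies and APUM24 were called lower, 5 of 10, against 15.1% of all tested genes. FIB2 fell by 2.08 at 5 d (SE 0.43, limma adjusted p = 0.00232), the NOP58 copy AT5G27120 fell by 1.33 (SE 0.41, adjusted p = 0.0329) and NOP56 fell by 1.17 (SE 0.36, adjusted p = 0.0301). The uncalled genes at 5 d had differences of -0.54 (FIB1) to -0.95 (BRX1 copy AT1G52930). The 5 d count was 1 with TMM factors, and it was 2 and 1 without NPA replicates 1 and 2 and 1 and 0 without mock replicates 1 and 2.

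At 12 h FIB2 alone was called lower, 1 of 10, against 1.23% of all tested genes. It had 5.97 and 19.07 TPM with NPA, against 54.28 and 31.28 TPM in mock, and fell by 1.84 (SE 0.43, limma adjusted p = 0.0323). All 10 were lower at an unadjusted p under 0.05 at 12 h, as were 10.1% of all tested genes. The count was 9 without NPA replicate 2, and 0 without NPA replicate 1 or without mock replicate 1. In the 12 h pairs the members were higher together in the library with more CCA1 (NPA replicate 2 and mock replicate 1, 10 of 10 each), with a median log2 difference of -1.11 between NPA replicates 1 and 2 and of 0.73 between mock replicates 1 and 2. At 6 h all 10 were also higher together in NPA replicate 2 and in mock replicate 1, where CCA1 was the lower of its pair (0.53 against 2.39 TPM in NPA and 0.32 against 1.4 TPM in mock). The part of the clock or of sampling time in these differences was not tested. Same-numbered NPA and mock libraries deviated in opposite directions across genes at 6 h, 12 h and 24 h (r = -0.57, -0.58 and -0.36). The calls at single times take no account of this, and counts with a block chosen from the data are given at the end.

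At 6 h, 24 h and each day from 2 d to 4 d limma called 0 of 10, against 0.683%, 1.47%, 3.27%, 5.14% and 9.3% of all tested genes called lower. At an unadjusted p under 0.05 the counts at these times were 0, 1, 0, 0 and 3, all lower. Of all tested genes 3.47%, 8.86%, 10.7%, 14.2% and 18.7% were lower at that threshold. Both NPA libraries lay below both mock libraries for RID2 alone at 6 h (16% of all tested genes), for 8 genes at 12 h (26.6%), and for 10 genes at 24 h (30.8%), 2 d (31.5%), 4 d (49.2%) and 5 d (44%). At 3 d this held for 9 genes, RID2 being the exception, against 49.6% of all tested genes. A moderated F test of whether the NPA difference varied between times called 0 of 10, against 5.86% of all tested genes, and none had an unadjusted p under 0.05 (the lowest was 0.11, for FIB2).

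**Figure D3:**
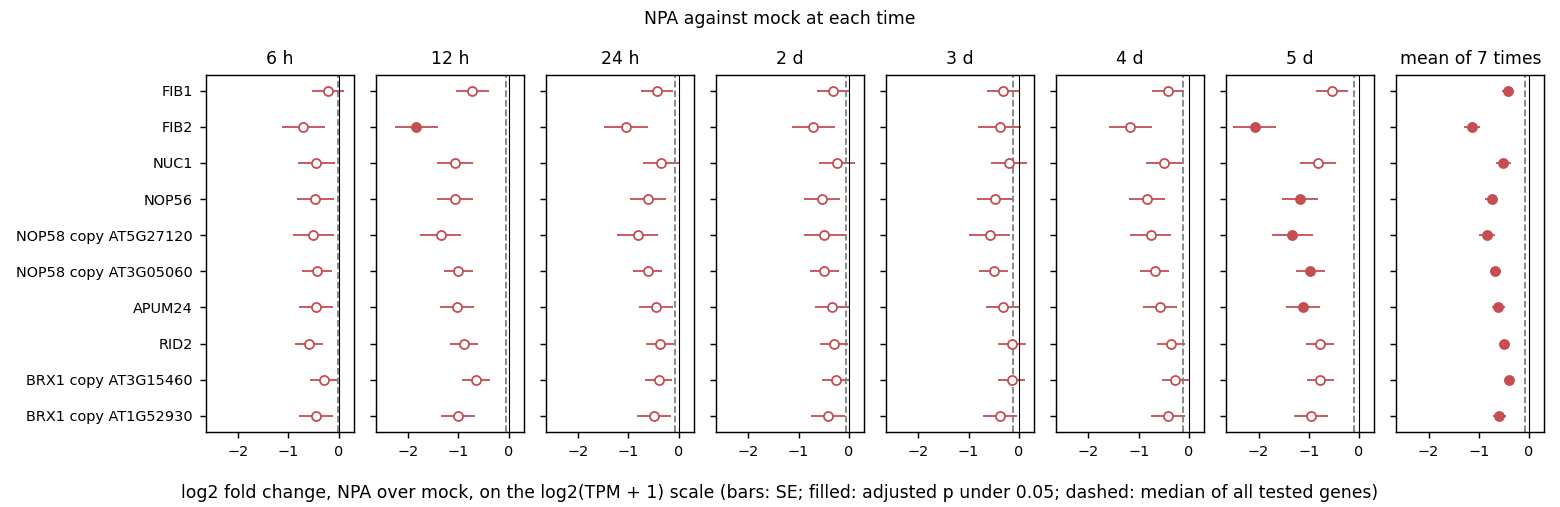
Log2 fold change of NPA over mock on the log2(TPM + 1) scale for the 10 genes at each of 7 times and averaged over them, with bars for SE, filled points for adjusted p under 0.05 and a dashed line at the median of all tested genes. Every point lies below that median, the FIB2 values of -1.84 at 12 h and -2.08 at 5 d lie farthest left, and filled points number 1 at 12 h, 5 at 5 d and 10 in the average.

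Within gene pairs the share of each copy differed between NPA and mock. FIB2 made up 15 and 11.7% of the summed FIB1 and FIB2 level with NPA at 5 d, against 27 and 36.8% in mock. Over all times its share ran from 11 to 22.8% with NPA, median 16.6%, and from 19.3 to 36.8% in mock, median 24.9%, while the T0 libraries had 13.4 and 19%. The FIB2 share was lower with NPA at 7 of 7 times (mean difference -8.35 percentage points, SD of the 7 differences 5.8, exact permutation within times, two-sided p = 1.43e-05, adjusted over 3 pairs 4.29e-05). The NOP58 copy AT5G27120 had a median share of its pair of 47.3% with NPA and 51.2% in mock, with a mean difference of -2.94 points (SD 2.6, exact permutation p = 0.00787, adjusted 0.00787). The BRX1 copy AT3G15460 went the other way, with a median share of 39.6% with NPA and 36.3% in mock and a mean difference of 3.09 points (SD 1.53, exact permutation p = 9.29e-05, adjusted 0.000139). The fibrillarin pair had the largest mean difference of the 3. This test was chosen after the values were seen. Coding sequences of FIB2 and FIB1 were identical at 84.8% of 921 aligned bases with a longest identical run of 44 bases, those of the NOP58 copies at 82.5% with a run of 41 and those of the BRX1 copies at 84.4% with a run of 29, so some reads could be split between copies by the authors' counting. FIB1 and FIB2 also host the small nucleolar RNA genes U60.1F and U60.2F on the same strand, and NUC1, NOP56 and the BRX1 copy AT3G15460 overlap an opposite-strand gene by 90, 130 and 41 bases, with the strandedness of the libraries not given in the sources used here.

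**Figure D4:**
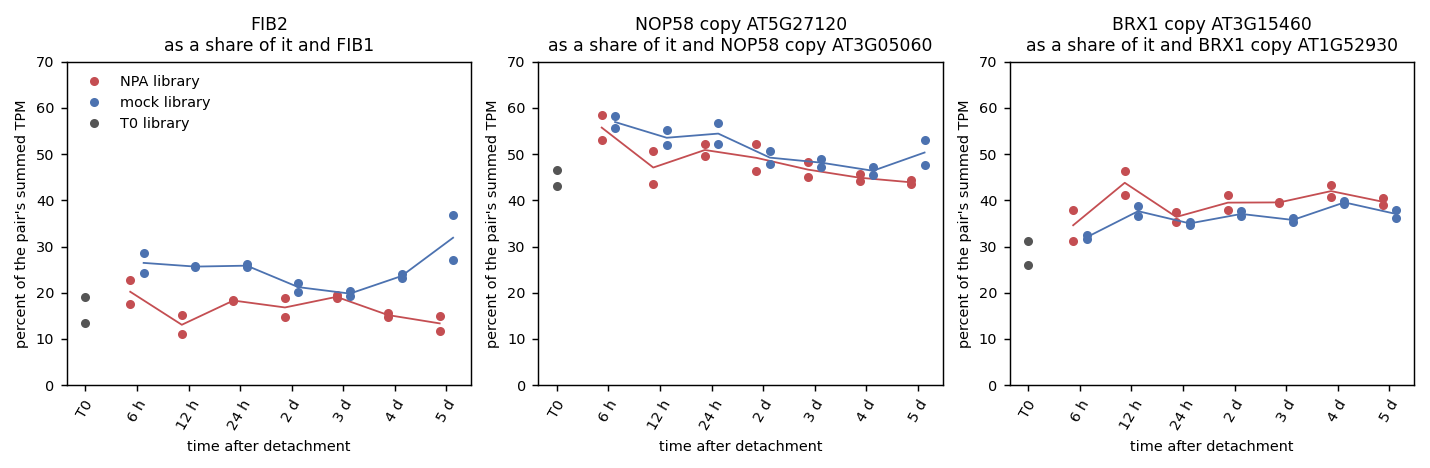
Share of FIB2, the NOP58 copy AT5G27120 and the BRX1 copy AT3G15460 in the summed TPM of their pair, in percent, for every library (points; red NPA, blue mock, grey T0) with lines for the mean of 2. The FIB2 share reaches 36.8% in mock and 22.8% with NPA, and the BRX1 share lies higher with NPA than in mock on average at every time.

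Mock was compared with T0 to ask what changes beside the wound after detachment, and all 7 comparisons share the 2 T0 libraries. At 6 h FIB2, the NOP58 copy AT5G27120 and the BRX1 copy AT3G15460 were called higher, 3 of 10, against 26.5% of all tested genes. FIB2 had 82.75 and 46.76 TPM in mock at 6 h, against 27.15 and 24.99 TPM at T0, a log2 fold change of 1.23 (SE 0.43, limma adjusted p = 0.0382). The NOP58 copy had 86.03 and 50.11 TPM in mock, against 32.95 and 23.43 TPM at T0, and the BRX1 copy 30.68 and 18.72 TPM in mock, against 12.02 and 9.9 TPM at T0. Their fold changes were 1.21 (SE 0.41, limma adjusted p = 0.0314) and 1.07 (SE 0.27, limma adjusted p = 0.00623). All 3 pairs of libraries were apart, but mock replicate 1 was the higher in each. The share of all tested genes with such separate libraries was not computed. The members' median was 0.74 and that of all tested genes 0.21, and with TMM factors these were 0.52 and 0.03 and the count was 1. The count was also 1 with quantile normalization, 2 and 1 without T0 replicates 1 and 2, and 0 without mock replicate 1.

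After 6 h few members were called over T0. The members' medians over T0 were 0.08 at 12 h, 0.52 at 24 h, 0.27 at 2 d, 0.40 at 3 d, 0.20 at 4 d and 0.63 at 5 d, with all-gene medians of 0.07, 0.26, 0.26, 0.34, 0.34 and 0.37. At 12 h and at 2 d, 3 d and 4 d limma called 0 of 10, against 17%, 33.4%, 39.9% and 39.8% of all tested genes called higher. The counts at an unadjusted p under 0.05 were 0, 1, 0 and 1, all higher. Of all tested genes 23.3%, 38.7%, 44.4% and 44.1% were higher at that threshold. At 24 h only the BRX1 copy AT3G15460 was called higher (32.5% of all tested genes), with a fold change of 0.72 (SE 0.27, limma adjusted p = 0.0435), and the count was 0 without T0 replicate 1, without mock replicate 2, without a filter, with TMM factors and with quantile normalization. At 5 d 2 of 10 were called higher, against 42.4% of all tested genes. FIB2 had 56.61 and 94.38 TPM in mock at 5 d, above the 27.15 and 24.99 TPM of T0, a fold change of 1.45 (SE 0.43, limma adjusted p = 0.00915). The BRX1 copy AT3G15460 had 20.81 and 25.64 TPM in mock, against 12.02 and 9.9 TPM at T0, a fold change of 1.02 (SE 0.27, limma adjusted p = 0.00449). The 5 d count was 2 without either T0 library, and 1 without mock replicate 2, with TMM factors or with quantile normalization. These shares of members called lie near or below the background.

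Between successive times the NPA libraries changed most from 6 h to 12 h. At 12 h with NPA 9 of 10 members were called lower than at 6 h, against 14.6% of all tested genes, with a median of -1.18 over the 10. RID2 missed the call, with a fold change of -0.70 (SE 0.28, limma adjusted p = 0.102). FIB2 had 5.97 and 19.07 TPM at 12 h, against 26.12 and 54.77 TPM at 6 h, and NUC1 had 47.01 and 101.68 TPM at 12 h, against 128.08 and 257.12 TPM at 6 h. In both genes the 12 h libraries lay below the 6 h libraries, and the share of all tested genes with this order was not computed. FIB2 fell by 1.72 (SE 0.43, limma adjusted p = 0.0127) and NUC1 fell by 1.38 (SE 0.36, limma adjusted p = 0.0146). The clock gene CCA1 also differed, at 2.39 and 0.53 TPM with NPA at 6 h and 8.45 and 135.73 TPM at 12 h. The part of the clock or of sampling time in this step was not tested. The count was 4 with TMM factors or quantile normalization, and 0 without NPA 6 h replicate 2 or without NPA 12 h replicate 1. In mock the median from 6 h to 12 h was -0.59 and limma called 0 of 10, against 6.91% of all tested genes called lower. At an unadjusted p under 0.05, 2 members were lower, against 19.9% of all tested genes. From 12 h to 24 h with NPA, NUC1 was called higher, 1 of 10 against 9.21% of all tested genes, at 213.86 and 232.47 TPM at 24 h, against 47.01 and 101.68 TPM at 12 h, a fold change of 1.67 (SE 0.36, limma adjusted p = 0.0113). That count was 8 without NPA 12 h replicate 2, and 0 without NPA 12 h replicate 1 or NPA 24 h replicate 2.

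Other ribosome biogenesis genes were lower with NPA as well. Of 55 such genes, all tested, 51 were called lower with NPA on average over times, against 30.6% of all tested genes, with a median of -0.46. The lists of this paragraph, like the members, were chosen with earlier results of these data known. At 5 d 17 were called lower, against 15.1%, with a median of -0.62. CBF5, the pseudouridine synthase of box H/ACA particles, fell by 0.73 on average (SE 0.11, limma adjusted p = 6.3e-05) and fell by 1.29 at 5 d (SE 0.30, limma adjusted p = 0.00537). SWA1, a small subunit processing protein needed in the female gametophyte, fell by 1.14 at 5 d (SE 0.31, limma adjusted p = 0.0156), and NSN1, a nucleolar GTP-binding protein, fell by 1.01 (SE 0.28, limma adjusted p = 0.0178). NOC4, in the small subunit list, fell by 0.87 at 5 d (SE 0.21, limma adjusted p = 0.0075). Of the 3 RNA polymerase I subunits 3 were called lower on average. NRPA1 and NRPA2, the large catalytic subunits, had differences of -0.36 and -0.37, and NRPA12 had -0.45. At 5 d 0 were called (differences of -0.56 to -0.41). Over the times from 24 h to 5 d alone NRPA1, NRPA2 and NRPA12 were not called (limma adjusted p = 0.133, 0.0974 and 0.0614). Of the 17 ribosomal protein genes 17 were called lower at 5 d, with a median of -0.75, and 17 on average, with a median of -0.44. RPL10B fell by 0.97 at 5 d (SE 0.20, limma adjusted p = 0.00182). Of 6 growth regulators 1 was called lower at 5 d, near the 15.1% of all tested genes. This was BZIP11, a leucine zipper factor whose translation sucrose represses, which fell by 0.73 (SE 0.24, limma adjusted p = 0.0423). TOR, RAPTOR1, S6K1 and NAC082 had differences of -0.20 to -0.10 and S6K2 had 0.57, and these were not called.

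In mock at 6 h 13 of the 55 were called higher than at T0, which is below the 26.5% of all tested genes, with a median of 0.51 beside 0.21 for all genes. NUC2, the second nucleolin gene, had a fold change of 1.53 (SE 0.17, limma adjusted p = 4.28e-06), RRS1 of large subunit assembly 1.11 (SE 0.25, adjusted p = 0.00307) and LSG1-1, a cytoplasmic GTPase of large subunit maturation, 1.18 (SE 0.42, adjusted p = 0.0385). From 6 h to 12 h with NPA 42 of the 55 were called lower, against 14.6% of all tested genes, as were 17 of the 17 ribosomal protein genes. These list counts were not taken under other normalizations or with libraries left out, some of which lowered the members' count for the same step.

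Some other cell markers were lower with NPA at 5 d as well, and some of these were already lower at earlier times. Of 8 markers of dividing cells 5 were called lower with NPA at 5 d, against 15.1% of all tested genes, with a median of -1.40. Their summed level was 268 and 229.4 TPM with NPA, against 387.7 and 435.53 TPM in mock. Averaged over times 8 of the 8 were called lower, against 30.6% of all tested genes, with a median of -0.72. CYCB1;1, a mitotic cyclin, stood at 1.03 and 0.93 TPM with NPA, against 5.84 and 9.15 TPM in mock. The root meristem and primordium markers summed to 18.94 and 20.65 TPM with NPA, against 37.48 and 51.57 TPM in mock. Of the 4 tested, 3 were called lower, against 15.1% of all tested genes. SCR was the exception, with a difference of -0.08 (limma adjusted p = 0.927). It had 11.55 and 12.07 TPM with NPA, against 12.43 and 12.56 TPM in mock. PLT1, PLT2 and RGF1 were listed at 0 in both NPA libraries at 5 d, and were near 0 in mock, at 0.15 and 0.65 TPM for PLT1, 0.19 and 1.46 TPM for PLT2 and 0 and 1.52 TPM for RGF1. Of 3 xylem markers 3 were called lower at 5 d (15.1% of all tested genes), with sums of 1.6 and 5.11 TPM with NPA and 35.55 and 46.15 TPM in mock. These 3 were also called lower at 2 d, 3 d and 4 d (3.27%, 5.14% and 9.3% of all tested genes), when 0 members were called. At those times XCP1 had differences of -2.18, -2.22 and -3.41. PLT3 was called lower at each of them, with -0.80, -1.59 and -2.28. Of these times WOX5 and SHR were called at 4 d alone, and SCR was not called. Of 6 leaf mesophyll markers 0 were called at 5 d, with a median of 0.36. At 12 h 0 of the 8 dividing cell markers and 0 of the 3 xylem markers were called, beside 1.23% of all tested genes called lower. Their medians were -0.11 and -0.17, while the members' median was -1.02. The part of these cell types in the 5 d result was not tested.

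The members resembled one another over the 15 group means. Pearson's r of each with the mean of the other 9 ran from 0.815 for NUC1 to 0.99 for APUM24, which describes 15 points that share libraries. The 8 genes most like the members' mean, among 5473 genes with a symbol and a mean of at least 10 TPM, were NSN1 (r = 0.994), PPR596 (0.98), NFD1 (0.98), PWP2 (0.975), FKBP53 (0.973), YAO (0.968), La1 (0.967) and RPL3P (0.966). NSN1, PWP2 and YAO belong to the ribosome biogenesis lists used here. NSN1 averaged 22.4 TPM with NPA at 5 d and 46.1 TPM in mock at 5 d, and FKBP53, a nucleolar histone chaperone, averaged 17.6 TPM with NPA and 37.1 TPM in mock.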

How the data were processed

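The authors deposited TPM values for 37686 genes in 2 tables, one for mock and one for NPA, whose T0 columns were identical and were used once. Per the submitters' processing notes, Trim Galore 0.5.0, STAR 2.7.2b, RSEM 1.3.2 and genome build TAIR10 were used. Their order and parameters and the strandedness of the libraries are not given in the sources used here. RNA came from a TRIzol extraction, per the labels' protocols. Since TPM is relative within a library, abundant genes that rise push other values down, and no counting interval can be given.

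Genes with at least 1 TPM in at least 2 libraries (20654) were fitted as log2(TPM + 1) over all 30 libraries and 15 groups with limma 3.58.1 under R 4.3.3 (lmFit and eBayes, trend on; residual degrees of freedom 15, prior 2.33). A fold change on this scale understates the change of low genes. Tests were two-sided, adjusted per comparison (Benjamini-Hochberg) and called at an adjusted p under 0.05. Shares within gene pairs were tested by exact permutation of the 4 libraries of each time (279936 rearrangements). None of 435 pairs of libraries held identical values.

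The members and gene lists were chosen with earlier results of these data known, and of 122 listed loci 119 were tested. All members were named, with up to 3 called genes per list with the largest changes per comparison (clock and marker genes beside results they move with) and the 8 genes of most similar pattern. Alternatives were no filter or a minimum mean TPM of 5, pseudocounts of 0.1 and 5, TMM factors of the TPM values, rescaling with organelle genes left out, quantile normalization, no trend, a replicate block and each library left out. Added after seeing the data were the times from 24 h to 5 d alone, a replicate block crossed at some times and the tests of pair shares. Replicate numbers were not taken as pairs. Sequences and coordinates are from RefSeq TAIR10.1, read with pysam 0.24.0, and coding sequences were aligned with Biopython 1.88.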

Additional observations from a re-analysis of the deposited data

How the results depend on the processing

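Of 421 counts of members called under an alternative, 383 stayed within 1.5 times the value reported. Counts of 0 that stayed 0 are among the 383, so this share says little about the counts above 0. With TMM factors the counts were 1 for mock at 6 h over T0, 0 at 24 h and 1 at 5 d, 1 for NPA against mock at 5 d and 4 for NPA at 12 h against 6 h. With quantile normalization they were 1 for mock at 6 h, 0 at 24 h, 1 at 5 d and 4 for NPA at 12 h against 6 h. Without a filter the mock 24 h count was 0. A pseudocount of 5 gave 1 for mock at 12 h against 6 h, and a pseudocount of 0.1 or a mean TPM of at least 5 gave 2 for NPA at 24 h against 12 h. With a replicate block the mock 24 h count was 0, and no other count moved by over 1.5 times. Same-numbered NPA and mock libraries deviated from their group means with correlations between -0.58 and 0.33 across genes. These were -0.57, -0.58 and -0.36 at 6 h, 12 h and 24 h and 0.33 at 2 d. A number thus did not mark libraries that went together at every time, and what opposite-numbered libraries shared was not tested. A replicate block chosen from these correlations matched same-numbered libraries at 2 d and 3 d and opposite-numbered libraries at the other times. It gave 9, 3, 1, 4 and 9 members lower with NPA at 12 h, 24 h, 2 d, 4 d and 5 d. With each library left out in turn the counts ran from 0 to 4 for mock at 6 h, 0 to 1 at 24 h, 0 to 1 at 3 d, 1 to 2 at 5 d, 0 to 9 for NPA at 12 h, 0 to 2 for NPA at 5 d, 0 to 1 for mock at 12 h against 6 h, 0 to 10 for NPA at 12 h against 6 h and 0 to 8 for NPA at 24 h against 12 h. These fits give a lone remaining library the spread of the rest. The average over times held 10 members in each fit with a library left out and 9 with TMM factors. For FIB1, mock over T0 ran from -0.02 to 0.70 at 6 h and from -0.15 to 0.56 at 5 d as libraries were left out, lowest without T0 replicate 2, and was -0.14 at 5 d with TMM factors, none of them called. The pair shares kept their direction and stayed under 0.05 in all 87 refits (FIB2 -9.05 to -7.65 points, NOP58 copy -3.45 to -2.44, BRX1 copy 2.57 to 3.57). Unless fewer libraries were fitted, the cause of these changes was not tested. Depth is unknown, so the counting error of low values could not be estimated.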
